A study of Mus musculus with 8 samples.

Results

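CREB and ATF transcription factors and their coactivators were followed in the nuclear RNA of place cells, hippocampal neurons that fire at particular locations. The 10 genes were taken by name: the transcription factors Creb1, Crem, Atf1, Atf2 and Atf4, the acetyltransferase coactivators Crebbp and Ep300, and the CREB-regulated transcription coactivators Crtc1, Crtc2 and Crtc3. All 10 were present among the 15519 genes of the deposited table, and all 10 passed the filter on low values that left 11078 genes for testing. Libraries came from pyramidal cells of wild-type mouse hippocampus, 4 of Recurring and 4 of Day 0 place cells, collected as nuclei after imaging during navigation and tagging with light. The labels do not define the 2 classes further, and no age, sex, hippocampal subfield or number of nuclei per library is given in the sources used here. Separate animals are given by no label beyond the mouse number in each title, so the p-values below measure the spread between these 8 libraries.

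CREB binds a short DNA element, the cAMP response element (CRE), and activates transcription once kinases driven by calcium and cAMP phosphorylate it. The phosphorylated form recruits CBP and p300, the products of Crebbp and Ep300, which acetylate histones, while dephosphorylated CRTC proteins enter the nucleus and bind CREB directly. In the hippocampus this pathway is known for coupling neuronal activity to gene expression and to long-term memory. Much of its regulation acts on proteins and not on the amount of these mRNAs.

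The element that joins the family to its targets is shown for 5 genes of a list of known neuronal CREB targets that are in the deposited table and have it near the start site. The full CRE, TGACGTCA, reads the same on both strands. Each line gives 20 bases on either side of it, 5′ to 3′ on the gene's strand, with the CRE in capitals, from the RefSeq promoters of mouse build GRCm38.p6 (250 bases before to 50 after the start site).
Btg2, chr1:134079294-134079341, minus strand: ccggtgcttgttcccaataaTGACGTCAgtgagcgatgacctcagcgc
Dusp1, chr17:26508588-26508635, minus strand: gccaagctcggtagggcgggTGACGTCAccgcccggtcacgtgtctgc
Pcsk1, chr13:75089759-75089806, plus strand: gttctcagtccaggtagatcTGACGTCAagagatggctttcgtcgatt
Scg2, chr1:79440067-79440114, minus strand: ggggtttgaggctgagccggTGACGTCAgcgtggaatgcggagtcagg
Sst, chr16:23890865-23890912, minus strand: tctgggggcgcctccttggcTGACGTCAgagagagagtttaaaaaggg
Counted from the start site, with bases before it negative, the CRE began at -166 in Btg2, -143 in Dusp1, -78 in Pcsk1, -68 in Scg2 and -48 in Sst. In all, 6 of the 22 listed targets with a RefSeq promoter had the full CRE, against 549 of 27025 genes (2.03%). The core of the element, TGACG or CGTCA on either strand, was in at least 1 promoter of 19 of those 22 genes and of 23.0% of all genes, and every full CRE holds the core on both strands.

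RefSeq promoters were matched for 8 of the 10 family and coactivator genes, all but Crem and Crtc2. None of the 8 held the full CRE, and the promoters of Atf1 and Atf4 held the core, 2 of 8 against 20.8% of the 32851 promoters. A core match of each gene, upstream of the start site, is shown in capitals, since the family itself gave matches in these genes only.
Atf1, chr15:100227749-100227793, plus strand: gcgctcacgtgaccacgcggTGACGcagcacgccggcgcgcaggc
Atf4, chr15:80255152-80255196, plus strand: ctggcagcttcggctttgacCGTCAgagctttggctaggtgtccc
The Atf1 match began at -90 and the Atf4 match at -12. These are matches of letters in a fixed window, and a window without a match says nothing about binding.

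Depth ran between 8374986 and 14887866 reads per library, recovered from the deposited values. Values below are normalized counts, the recovered reads divided by a size factor per library, and differences are Recurring minus Day 0 on the log2(normalized count + 1) scale. The added 1 draws ratios between low counts toward 1. A library at or near 0 pulls a mean on this scale far down, so the difference can exceed that of the mean counts or run the other way. All 14 listed CA1 pyramidal markers were in the table, with summed normalized counts of 37592 to 50444 in Recurring libraries and 33860 to 44854 in Day 0 libraries (n = 4 each). Of these markers, Mef2c was at 0 in Recurring replicate 1, and Mef2c and Pou3f1 were at 0 in Day 0 replicate 4. Markers of other cell types were also read. Astrocyte markers, 10 of 11 in the table, summed to 1855 to 19136 in Recurring and 1958 to 3102 in Day 0 libraries, and microglia markers, 5 of 10 in the table, to 507 to 6056 in Recurring and 213 to 707 in Day 0 libraries. Interneuron markers, 11 of 12, summed to 426 to 10494 in Recurring and 974 to 3732 in Day 0 libraries, and oligodendrocyte markers, 9 of 10, to 1457 to 7409 in Recurring and 1405 to 12183 in Day 0 libraries. Recurring means were higher for 7 of 9 tested astrocyte markers (median difference 2.69) and 3 of 4 tested microglia markers (4.57). For interneuron markers it was 5 of 7 (0.08), for oligodendrocyte markers 2 of 8 (-0.24) and for pyramidal markers 8 of 14 (0.29). The median over all genes was 0.005. An unadjusted p under 0.05 (limma) was reached by 3 astrocyte markers, 2 microglia markers and 1 pyramidal marker, and by 3.62% of all genes. The pyramidal marker was Camk2a, lower in Recurring libraries. None of these markers passed an adjusted p of 0.05. The filter on low values could admit a marker through high values in 1 class. C1qb, a microglia marker, had 315, 186, 122 and 1308 in Recurring against 0, 50, 0 and 0 in Day 0 libraries. High Recurring values were thus part of what admitted C1qb, and the marker counts, medians and p-values above carry that limit. The part of other cell types in the values below was not tested. In such libraries, fewer cells of a type and less RNA per cell cannot be told apart.

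Recurring and Day 0 place cells were compared for each gene, the question being whether the 2 classes differ in the transcripts of this pathway. No family or coactivator gene passed the test: 0 of 10 had an adjusted p under 0.05 (limma, Benjamini-Hochberg over all 11078 genes, 0% of which were called). None of the 10 reached an unadjusted p of 0.05, which 3.62% of all genes did (1.88% higher and 1.74% lower in Recurring), and in none were the groups free of overlap, as they were in 2.41% of all genes. The Recurring mean was the higher one for 6 of the 10 genes, against 50.1% of all genes, and the median difference of the 10 was 0.47, against 0.005 over all genes. Crem, Crtc3 and Atf4 differed by more than 1 log2 unit, as did 47% of all genes.

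**Figure D1:**
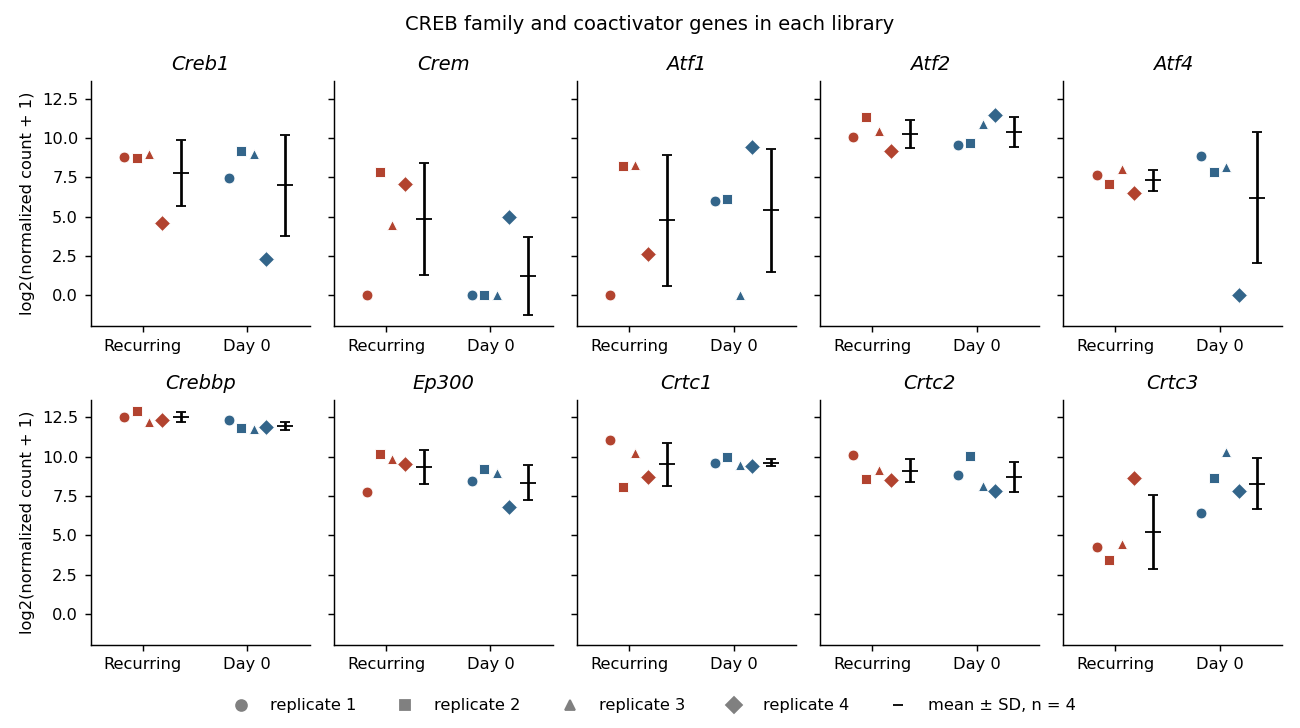
Level of each of the 10 genes in every library, as log2(normalized count + 1), in Recurring (red, left) and Day 0 (blue, right) libraries; marker shapes are replicates, and bars are mean ± SD (n = 4 each). The groups overlap for all 10 genes, Crebbp is the highest, and 3 genes have libraries at 0.

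Creb1 encodes CREB itself, the founding member of the family. It had normalized counts of 443, 426, 502 and 23 in Recurring replicates 1 to 4, against 174, 582, 505 and 4 in Day 0 replicates 1 to 4. In each class 1 library stood far below the other three, and those low libraries rested on 23 reads and 4 reads. The Recurring mean was 7.78 ± 2.12 and the Day 0 mean 6.99 ± 3.20 (log2 scale, SD, n = 4 each), a difference of 0.79 with a standard error of 1.72 and a 95% interval of -2.85 to 4.43 (limma, adjusted p = 0.998). Without the lowest Day 0 library the difference was -0.76, so its direction rested on that library.

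Crem encodes the cAMP response element modulator, whose transcripts give both activators and repressors, among them the inducible repressor ICER. It had normalized counts of 0, 232, 21 and 136 in Recurring replicates 1 to 4, against 0, 0, 0 and 30 in Day 0 replicates 1 to 4. Reads were present in 3 of 4 Recurring and 1 of 4 Day 0 libraries, and the only Day 0 library with reads lay between the Recurring values. At these depths, a count of 0 allowed a normalized count of up to 1.86 in Recurring replicate 1 and up to 2.23, 2.39 and 3.58 in Day 0 replicates 1 to 3, for counting error only.

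Crem had the largest difference of the 10 genes, 3.62 with a standard error of 2.12 and a 95% interval of -0.86 to 8.10 (limma, adjusted p = 0.981). The gene passed the filter with 4 libraries, 3 of them Recurring, so a high Recurring mean was part of what admitted it. The fitted size depended on the pseudocount, at 4.11 with 0.5 and 2.17 with 8. In the GENCODE vM21 annotation, 8.01% of its exon bases also lie in Gm6225 on the other strand, and whether counting used strand is not given in the sources used here, so its reads are uncertain to that extent. The files count reads per gene, and activator and repressor transcripts of Crem cannot be told apart in them.

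Atf1 encodes the close relative of CREB that pairs with it on the CRE. It had normalized counts of 0, 299, 305 and 5 in Recurring replicates 1 to 4, against 64, 69, 0 and 688 in Day 0 replicates 1 to 4. Each class had a library at 0, and the libraries with the most and the least Atf1 were spread over both. The difference was -0.62 with a standard error of 2.66 and a 95% interval of -6.25 to 5.0, the widest of the 10 (limma, adjusted p = 0.998), and it ran between -2.42 and 0.97 as single libraries were left out. An annotated pseudogene, Atf1-ps, carries its name, and how reads shared with it were assigned is not given in the sources used here.

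Atf2 encodes a factor that binds CRE-like sites, often with JUN proteins, after phosphorylation by stress kinases. It had normalized counts of 1085, 2596, 1404 and 581 in Recurring replicates 1 to 4, against 748, 804, 1938 and 2801 in Day 0 replicates 1 to 4. The ranges of the classes nearly coincided. Its log2 level averaged 10.27 ± 0.89 in Recurring and 10.39 ± 0.94 in Day 0 libraries (SD, n = 4 each), with a difference of -0.13, a standard error of 0.62 and a 95% interval of -1.44 to 1.19 (limma, adjusted p = 0.998). The sign turned when single libraries were left out, with values between -0.48 and 0.23.

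Atf4 encodes the effector of the integrated stress response, whose protein is made mainly when eIF2alpha is phosphorylated. It had normalized counts of 202, 133, 256 and 90 in Recurring replicates 1 to 4, against 466, 224, 280 and 0 in Day 0 replicates 1 to 4. Of the Day 0 libraries, 2 lay above every Recurring library and 1 had no read, which allowed a normalized count of up to 3.01. The mean normalized count was therefore lower in Recurring, at 170 ± 73.4 against 242 ± 192 in Day 0 libraries (SD, n = 4 each), while the mean on the log2 scale was higher.

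On that scale the Atf4 difference was 1.11 with a standard error of 2.01 and a 95% interval of -3.13 to 5.35 (limma, adjusted p = 0.998). Without Day 0 replicate 4 it was -0.96. The direction for Atf4 thus depended on the scale and on 1 library.

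Crebbp encodes CBP, the acetyltransferase that binds phosphorylated CREB. It had the highest mean of the 10 genes and also the highest median per kilobase of exon, with normalized counts of 5857, 7715, 4742 and 5160 in Recurring replicates 1 to 4, against 5199, 3533, 3497 and 3748 in Day 0 replicates 1 to 4. The Recurring libraries held the higher values, and Day 0 replicate 1 was the only Day 0 library within their range. The log2 level averaged 12.49 ± 0.31 in Recurring and 11.94 ± 0.27 in Day 0 libraries (SD, n = 4 each).

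The Crebbp difference was 0.55 with a standard error of 0.32, a fold of 1.46 with a 95% interval of 0.915 to 2.34 (limma, adjusted p = 0.981). Its standard error was the smallest of the 10 genes, and 0.803% of all tested genes had a smaller one. Without the variance trend, which ties the standard error to level, it was 0.58. The difference lay between 0.41 and 0.68 as each library was left out in turn, and above 0 under every other setting tried. It did not pass the threshold in any of them.

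Ep300 encodes p300, the paralog of CBP. It had normalized counts of 211, 1158, 912 and 742 in Recurring replicates 1 to 4, against 351, 580, 500 and 108 in Day 0 replicates 1 to 4. In Recurring libraries 3 values lay above every Day 0 value, and Recurring replicate 1 lay below 3 of the Day 0 libraries. The difference was 0.97 with a standard error of 0.90 and a 95% interval of -0.93 to 2.88 (limma, adjusted p = 0.981). It stayed above 0 without any 1 library, between 0.45 and 1.51.

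The CRTC coactivators are held in the cytoplasm by salt-inducible kinases and released by calcineurin, and Crtc1 is the best known of them in neurons. Crtc1 had normalized counts of 2103, 270, 1196 and 417 in Recurring replicates 1 to 4, against 775, 992, 700 and 688 in Day 0 replicates 1 to 4. The Recurring libraries lay on both sides of the Day 0 libraries, which were close together, with a log2 SD of 1.36 in Recurring and 0.24 in Day 0 libraries. The difference was -0.10 with a standard error of 0.74 and a 95% interval of -1.65 to 1.46 (limma, adjusted p = 0.998), and its sign turned without single libraries, between -0.60 and 0.38. The difference in spread between the classes was not tested.

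Crtc2, best known from the hepatic response to glucagon, had normalized counts of 1093, 386, 575 and 360 in Recurring replicates 1 to 4, against 446, 1038, 283 and 224 in Day 0 replicates 1 to 4. Each class held 1 library well above its other three, and the ranges overlapped. The difference was 0.39 with a standard error of 0.84 and a 95% interval of -1.39 to 2.17 (limma, adjusted p = 0.998), and it was 0.06 without Recurring replicate 1 and -0.20 with libraries weighted by their quality (array weights).

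Crtc3, the remaining paralog of these coactivators, had normalized counts of 18, 9.69, 21 and 397 in Recurring replicates 1 to 4, against 85, 389, 1237 and 224 in Day 0 replicates 1 to 4. In Recurring libraries 3 values lay below every Day 0 value, and Recurring replicate 4 lay above all but 1 of them. The difference was -3.09 with a standard error of 1.79 and a 95% interval of -6.87 to 0.69, the smallest unadjusted p of the 10 genes (limma, adjusted p = 0.981). As each library was left out in turn it ran between -4.23, without Recurring replicate 4, and -2.42, without Day 0 replicate 3. It had no value under the filter of 10 or more in all libraries, and its sign was the same under each alternative that gave one.

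**Figure D2:**
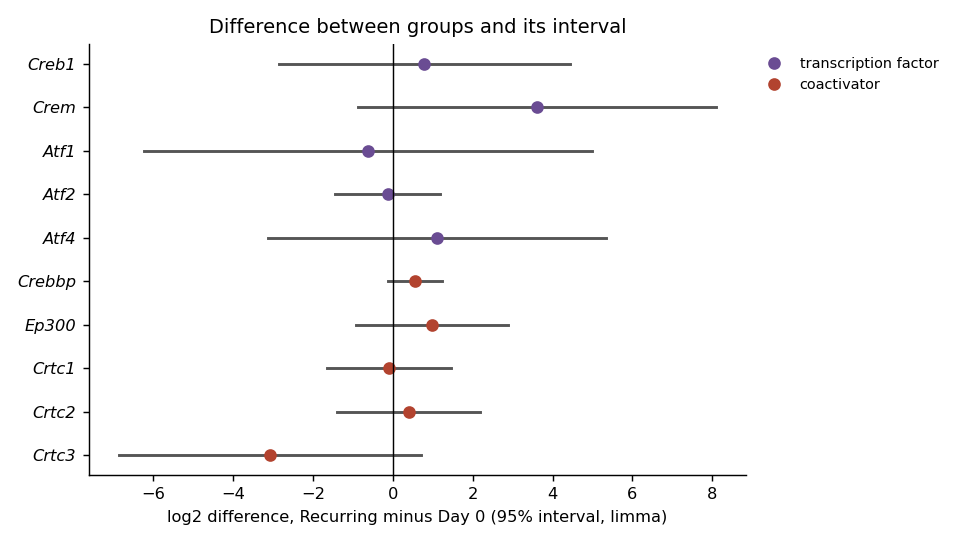
Difference of each gene, Recurring minus Day 0, in log2 units, with limma's 95% interval (4 libraries a class); purple points are transcription factors and red points coactivators. Every interval includes 0, and the interval of Crebbp, -0.13 to 1.23, is the narrowest.

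None of the 10 intervals lay within 1 log2 unit of 0. For no gene did these libraries bound the difference to less than 2-fold in both directions. An interval within 1 log2 unit of 0 was found for 1.98% of all tested genes. The median standard error of the 10 was 1.31, against 1.78 over all tested genes. Precision followed level. The standard errors of Crebbp, Atf2, Crtc1, Crtc2 and Ep300, the 5 genes with the highest means, were 0.32 to 0.90, and those of the other 5 were 1.72 to 2.66. The variance trend in the fit itself draws the standard error toward a curve on level. Without that trend they were 0.58 to 0.87 and 1.34 to 2.53. Reads were present in every library for 7 of the 10 genes, and Crem, Atf1 and Atf4 were at 0 in at least 1 library, as were 45.6% of all tested genes.

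**Figure D3:**
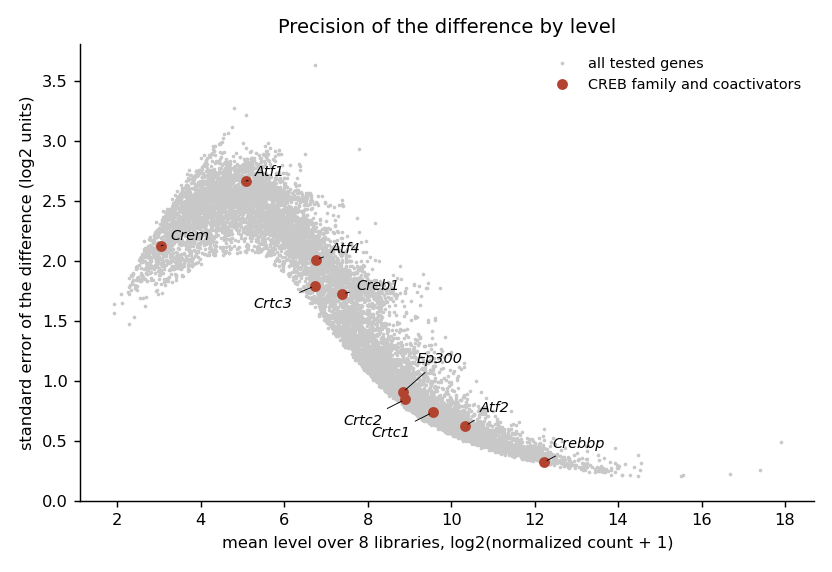
Standard error of the Recurring minus Day 0 difference (log2 units) against mean level over 8 libraries (log2 scale) for all tested genes (grey) and the 10 CREB family and coactivator genes (red). The standard error is 0.32 for Crebbp, near the right end of the cloud, and 2.66 for Atf1 at low level.

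Levels of different genes were compared per kilobase of annotated exon, from GENCODE vM21. Over the 8 libraries, the median normalized count per kilobase was 366 for Crebbp, 152 for Atf2, 102 for Crtc2, 90.3 for Atf4, 66.0 for Crtc1, 37.8 for Ep300, 31.6 for Creb1, 21.8 for Atf1, 15.6 for Crtc3 and 1.80 for Crem. Crebbp was above Atf2 in 7 of the 8 libraries, the exception being Day 0 replicate 4. Atf2 and Crtc2, Creb1 and Atf1, and Atf1 and Crtc3 each split 4 to 4, so the order of those neighbours was not set, and the other neighbours kept their order in 5 or 6 of 8 libraries. Transcripts that use only part of the annotated exons would shift these values, so the order holds for this exon length.

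**Figure D4:**
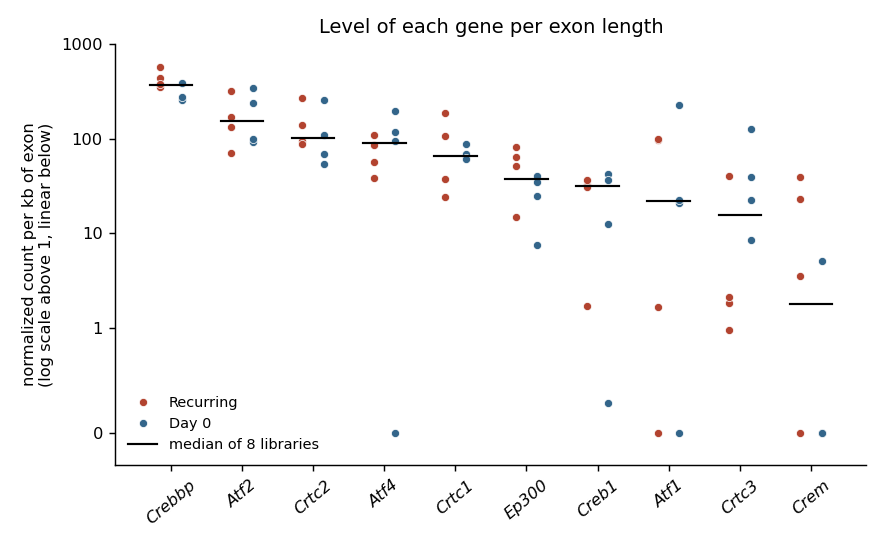
Normalized count per kilobase of exon for each gene (log axis above 1, linear below) in Recurring (red, left) and Day 0 (blue, right) libraries, ordered by the median over 8 libraries (line). Medians run between 366 for Crebbp and 1.80 for Crem, and single libraries of most neighbours overlap.

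Within the acetyltransferase pair, Crebbp exceeded Ep300 per kilobase in all 8 libraries, 5.48 to 29.2 times in Recurring and 6.42 to 36.5 times in Day 0 libraries. Among the CRTC genes, Crtc2 had the highest level per kilobase in 4 of 4 Recurring libraries, and in Day 0 libraries the highest was Crtc2 in 2, Crtc3 in 1 and Crtc1 in 1. Summed over the 3 CRTC genes, the level per kilobase was 119 to 457 in Recurring and 139 to 382 in Day 0 libraries, and the ranges overlapped. Of Creb1, Crem and Atf1, which bind the CRE as pairs with each other, the highest per kilobase differed between libraries of the same class: Atf1 in 2, Creb1 in 1 and Crem in 1 of the Recurring libraries, and Creb1 in 2 and Atf1 in 2 of the Day 0 libraries. Their summed level per kilobase was 26.4 to 168 in Recurring and 33.6 to 230 in Day 0 libraries.

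The rest of the pathway was described from 8 lists holding 146 genes, of which 129 were in the table and 110 were tested. None of the 110 passed the adjusted threshold (limma, Benjamini-Hochberg), and 4 had an unadjusted p under 0.05, the share over all genes being 3.62%. From each list, the gene with the smallest p and the gene with the highest mean log2 count, not corrected for length, are given. All adjusted p-values in the next paragraphs come from the same fit.

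Of the other CREB and ATF genes, 10 were tested, 7 with a higher and 3 with a lower Recurring mean, and the median difference was 0.29. Without Recurring replicate 1 the number with a higher mean was 4. The filter was applied again whenever a library was left out, and a gene lost to it is not counted as higher. Such counts can therefore fall through lost genes as well as through turned signs. Crebl2, a small CREB-like bZIP gene, had the smallest p, with normalized counts of 367, 36, 212 and 591 in Recurring against 0, 121, 0 and 181 in Day 0 libraries. Its difference was 4.06 with a standard error of 2.39 (adjusted p = 0.981), and between 2.86 and 5.36 as each library was left out in turn. All 4 Recurring libraries reached the filter's count of 10, but of the Day 0 libraries only replicates 2 and 4 did. Recurring values were thus part of what admitted Crebl2. Crebzf, which encodes a bZIP regulator also called Zhangfei, had the highest mean of the list, at 1278 to 1865 in Recurring and 1020 to 2167 in Day 0 libraries, and its difference was 0.08 with a standard error of 0.50 (adjusted p = 0.998).

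Of the kinases that phosphorylate CREB or activate such kinases, 20 were tested, 9 higher and 11 lower, and the median difference was -0.28. Camk2a, the alpha subunit of calcium/calmodulin-dependent kinase II, had normalized counts of 3411, 2732, 3195 and 1249 in Recurring against 9453, 3753, 4844 and 4467 in Day 0 libraries. All 4 Recurring values lay below all 4 Day 0 values, and 2.41% of all genes were without overlap in either direction. The gene is named because its p was the smallest of the list. The difference was -1.09 with a standard error of 0.42 and a 95% interval of -1.98 to -0.20 (adjusted p = 0.981). Without a variance trend its standard error was 0.67 (limma, unadjusted p = 0.142). With the deposited values unscaled the unadjusted p was 0.0586 (limma). Camk2a is also 1 of the 14 pyramidal markers. The summed level of those markers overlapped between the classes, as given above, but a large share of it came from Zbtb20. That gene, the marker with the highest mean, had 13643 to 31738 in Recurring and 10606 to 22734 in Day 0 libraries. Whether pyramidal content differed between the classes was not tested. Camk2b, the beta subunit, had the highest mean of the list, at 4514 to 6404 in Recurring and 5962 to 7889 in Day 0 libraries, with a difference of -0.30 and a standard error of 0.29 (adjusted p = 0.981).

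Of the kinases and phosphatases that set the location of CRTC proteins and the dephosphorylation of CREB, 15 were tested, 6 higher and 9 lower, and the median difference was -0.18. Ppp3r1, the regulatory subunit of calcineurin, had normalized counts of 1597, 3416, 3162 and 1700 in Recurring against 7851, 3544, 2194 and 4537 in Day 0 libraries. In Day 0 libraries 3 values lay above all Recurring values, and the difference was -0.81 with a standard error of 0.45 (adjusted p = 0.981), and -0.49 without Day 0 replicate 1. Ppp3ca, a catalytic subunit of calcineurin, had the highest mean, at 16139 to 33767 in Recurring and 18190 to 34436 in Day 0 libraries. Its difference was -0.07 with a standard error of 0.26 and a 95% interval of -0.61 to 0.48 (adjusted p = 0.998), an interval within 1 log2 unit of 0.

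Of the other acetyltransferases and coactivators, 11 were tested, 6 higher and 5 lower, and the median difference was 0.13. Taf4, a TFIID subunit that CREB contacts, had normalized counts of 681, 54, 174 and 231 in Recurring against 807, 570, 1052 and 1003 in Day 0 libraries. Recurring replicate 1 was the only Recurring library within the Day 0 range, and the difference was -2.08 with a standard error of 0.94 (adjusted p = 0.981). Ncoa1, a coactivator of nuclear receptors, had the highest mean, at 924 to 2026 in Recurring and 485 to 1869 in Day 0 libraries, with a difference of 0.38 and a standard error of 0.61 (adjusted p = 0.998).

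Of the deacetylases, which remove the marks that CBP and p300 set, 14 were tested, 9 higher and 5 lower, and the median difference was 0.29. Hdac9, a class IIa deacetylase, had normalized counts of 12, 0, 161 and 49 in Recurring against 196, 45, 466 and 156 in Day 0 libraries, a difference of -3.15 with a standard error of 2.20 (adjusted p = 0.981). Without Recurring replicate 2, the library at 0, it was -1.76, and with array weights it was -1.74. Hdac3, the catalytic subunit of the NCoR corepressor complex, had the highest mean, at 2855 to 5754 in Recurring and 1965 to 6666 in Day 0 libraries, with a difference of 0.22 and a standard error of 0.42 (adjusted p = 0.998).

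**Figure D5:**
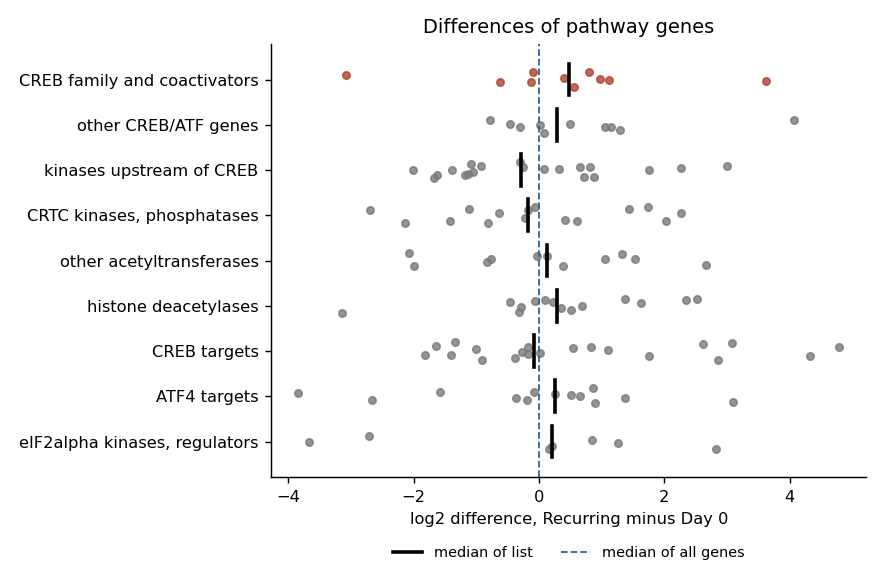
Difference of each tested gene, Recurring minus Day 0 (log2 units), for the 10 CREB family and coactivator genes (red) and 8 lists of pathway genes (grey), with list medians (black bars) and the median of all tested genes (dashed line); vertical scatter within a row has no meaning. List medians lie between -0.28 and 0.47, and no gene shown passed the adjusted threshold.

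Of the known neuronal CREB targets, 26 of 30 were in the table and 20 were tested, 10 higher and 10 lower, with a median difference of -0.09. Penk, the enkephalin precursor, had normalized counts of 363, 5636, 488 and 599 in Recurring against 224, 1, 0 and 2520 in Day 0 libraries. In Day 0 libraries 2 values were at 0 or 1 and 1 lay above 3 of the Recurring libraries, and the difference was 4.79 with a standard error of 2.15 (adjusted p = 0.981). It ran between 3.13, without Day 0 replicate 3, and 6.90, without Day 0 replicate 4. All Recurring libraries reached the filter's count of 10, but of the Day 0 libraries only replicates 1 and 4 did. Recurring values were thus part of what admitted Penk. Homer1, a scaffold of the postsynaptic density whose short form is induced by activity, had the highest mean of the list, at 23, 3425, 782 and 1594 in Recurring against 1480, 2752, 1908 and 2085 in Day 0 libraries. Its difference was -1.83 with a standard error of 1.09 (adjusted p = 0.981), and it was -0.31 without Recurring replicate 1.

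The targets whose CRE is printed above showed no common direction. Pcsk1, a convertase of neuropeptide precursors, had normalized counts of 14, 18, 423 and 441 in Recurring against 76, 3, 0 and 0 in Day 0 libraries, and Scg2, a granin of dense-core vesicles, had 1062, 8365, 2001 and 2157 in Recurring against 2517, 1983, 1502 and 0 in Day 0 libraries. Pcsk1 was at 0 in Day 0 replicates 3 and 4, Scg2 was at 0 in Day 0 replicate 4, and the classes overlapped. The other Day 0 values of Scg2 lay within the Recurring range, so much of its difference rested on that 1 library. The difference was 4.32 with a standard error of 2.33 for Pcsk1 and 3.08 with a standard error of 1.77 for Scg2 (adjusted p = 0.981 for both). Pcsk1 reached the filter's minimum count in all Recurring libraries, but among the Day 0 libraries only in replicate 1. High Recurring values were thus part of what admitted Pcsk1, and its difference carries that limit.

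Btg2, an early-response antiproliferative gene, had 0, 239, 0 and 212 in Recurring against 0, 293, 0 and 288 in Day 0 libraries, with 2 libraries at 0 in each class and a difference of -0.18 with a standard error of 2.75 (adjusted p = 0.998). Sst, the somatostatin precursor and an interneuron marker, had 46, 254, 107 and 344 in Recurring against 276, 104, 125 and 117 in Day 0 libraries, a difference of 0.01 with a standard error of 1.45 (adjusted p = 0.999). Dusp1, a phosphatase of MAP kinases, had 0, 32, 4 and 0 in Recurring against 0, 389, 137 and 0 in Day 0 libraries and was below the filter, so it was not tested.

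Over all genes with a full CRE in a RefSeq promoter, 359 were in the table and 322 were tested. Recurring means were higher for 166 and lower for 156, with a median difference of 0.02, against 0.005 over all tested genes. No such gene passed the adjusted threshold (limma, Benjamini-Hochberg), and 18 of the 322 had an unadjusted p under 0.05, against 401 of all 11078 tested genes (3.62%).

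Of the known ATF4 targets, 13 were tested, 7 higher and 6 lower, and the median difference was 0.25. The number higher was 3 without Day 0 replicate 4, and 4 without Day 0 replicate 3 or with array weights. Where a library was left out, genes lost to the filter are not counted as higher. Pck2, the mitochondrial phosphoenolpyruvate carboxykinase, had normalized counts of 153, 170, 0 and 168 in Recurring against 268, 630, 777 and 1435 in Day 0 libraries. All Recurring values lay below all Day 0 values, and 2.41% of all genes were without overlap in either direction. The difference was -3.84 with a standard error of 1.70 (adjusted p = 0.981). Without Recurring replicate 3, the library at 0, it was -2.0. Slc3a2, the heavy chain of amino acid transporters, had the highest mean, at 917 to 5467 in Recurring and 1608 to 4100 in Day 0 libraries, with a difference of -0.37 and a standard error of 0.57 (adjusted p = 0.998).

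Of the genes that act on eIF2alpha and so on ATF4 translation, 7 were tested, 5 higher and 2 lower, and the median difference was 0.21. The number higher was 1 without Day 0 replicate 4, and 2 when Recurring replicate 2 was left out. It was 3 with array weights or when Recurring replicate 4, Day 0 replicate 1 or Day 0 replicate 2 was left out. Again, genes lost to the filter when a library was left out are not counted as higher. Eif2b5, a subunit of the exchange factor for eIF2, had normalized counts of 0, 24, 44 and 615 in Recurring against 1025, 373, 111 and 441 in Day 0 libraries. In Recurring libraries 3 values lay below every Day 0 value, and the difference was -3.68 with a standard error of 2.00 (adjusted p = 0.981). Leaving out Recurring replicate 4 gave -5.15, and leaving out Recurring replicate 1, the library at 0, gave -2.06. Eif2ak4, the amino acid sensing kinase GCN2, had the highest mean, at 140 to 1009 in Recurring and 13 to 858 in Day 0 libraries, with a difference of 0.85 and a standard error of 1.28 (adjusted p = 0.998). Its sign turned to -0.58 without Day 0 replicate 4, the same library in which Creb1 was at 4 and Atf4 at 0.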

How the data were processed

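Nuclear RNA of 8 libraries was made into cDNA libraries with a SMART-Seq mRNA LP kit, per the labels' protocols. Per the submitters' processing notes, STAR, HTSeq and the build GRCm39 were used; versions are not given in the sources used here. The authors deposited a signal for each gene in each library that is not corrected for library depth. Within a gene it is whole reads times a constant (median 1.11). Dividing it out gave whole reads, within 0.1 read, for 95906 of 95910 values above 0; the largest deviation was 0.456 read. The constant was searched for each gene among those giving whole values, so whole values were partly built in. The recovery was tested on simulated data (1989 genes) made with the same scaling formula that the recovery uses. Library scaling used size factors from the median of ratios (0.837 to 1.61).

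Genes reaching a normalized count of 10 in 4 or more libraries entered limma 3.58.1 (R 4.3.3) on log2(normalized count + 1), two-sided, with a variance trend and Benjamini-Hochberg adjustment at 0.05, group being the only term. Limma was also tested on simulated data. Tables and promoter matches were made in Python 3.11.15. Intervals are 95%; a count of 0 allows up to 3 reads. Exon lengths and overlaps came from GENCODE vM21, which is on an earlier build than the counting; promoters came from RefSeq on GRCm38.p6.

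The 10 genes, the lists, the tests and the alternatives were chosen with earlier results of these data known. From each list, the tested genes with the smallest unadjusted p and the highest mean are named; the genes with a printed CRE are named besides. Replicates are numbered in accession order, and no batch or date is given. The 18 alternatives changed the scaling, pseudocount, filter, variance model, library weights or the libraries included.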

Additional observations from a re-analysis of the deposited data

Results flagged for a closer look

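Within each class, the highest and lowest library of the 10 genes were compared with the nearest other library, as the gap over the whole range of the 4 values, against Dixon's 95% critical value. Of the 20 groups of values, 3 were past it, 1 of them (Crem) through libraries tied at 0; chance gives about 1 in 20 where values are not tied. Creb1 in Recurring libraries had a lowest log2 value of 4.60, in replicate 4, with the nearest other at 8.74 (gap over range 0.946). Crem in Day 0 libraries had a highest log2 value of 4.96, in replicate 4, with the other three at 0; when all others are at 0, any single value gives a gap over range of 1 whatever its size, so this one is a description of where Crem was read. Atf4 in Day 0 libraries had a lowest log2 value of 0, again in replicate 4, with the nearest other at 7.81 (gap over range 0.881). Both Day 0 values came from the library in which Creb1 was also at its lowest, 2.32, and Atf1 at its highest, 9.43.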

How the results depend on the processing

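No family or coactivator gene and no pathway gene was called under any of the 18 alternatives. Over all genes the count called was 0 in each, except without a variance trend, where it was 2; the count at an unadjusted p under 0.05 was 650 with no filter on low values and 185 with a filter of 10 or more in all libraries, against 401, as more or fewer genes were tested. Of 170 alternative differences of the 10 genes, 153 kept their sign and 17 turned. With array weights, Creb1 was -0.23, Atf1 0.45, Atf2 0.26, Crtc2 -0.20, Crebzf -0.061, Ncoa1 -0.15 and Eif2ak4 -0.11. With voom, Atf2 was 0.011. With the deposited values unscaled, Crtc1 was 0.0048 and Ppp3ca 0.032. Leaving out 1 library each gave -0.76 to 1.85 for Creb1, -2.42 to 0.97 for Atf1, -0.48 to 0.23 for Atf2, -0.96 to 2.00 for Atf4, -0.60 to 0.38 for Crtc1, -0.084 to 0.28 for Crebzf, -0.26 to 0.10 for Ppp3ca, -0.10 to 0.49 for Hdac3 and -0.58 to 1.45 for Eif2ak4. The cause was not tested. Unadjusted p values under 0.05, from limma, occurred for Crem with array weights (0.0230) and without Recurring replicate 1 (0.0256), and for Crtc3 without Recurring replicate 4 (0.0498). Crem had no value with the unscaled deposited values, with the stricter filter or without Recurring replicate 2, 3 or 4 or Day 0 replicate 4, since it fell below the filter, and Creb1, Atf1, Atf4, Crtc3, Crebl2, Hdac9, Penk, Pck2 and Eif2b5 had none with the stricter filter. That filter also left fewer listed genes: higher Recurring means then numbered 3 of the other CREB and ATF genes, 2 of the CRTC regulators, 5 of the deacetylases, 3 of the CREB targets, 1 of the ATF4 targets and 2 of the eIF2alpha genes. No paired analysis was possible because the labels give no replicate numbers that pair libraries. Of the 10 genes, 3 were at 0 in a library, and whether depth set those zeros was not tested. Crem and Atf1 were both at 0 in Recurring replicate 1, which had the most reads (14887866) but only 10904 genes with reads. Atf4 was at 0 in Day 0 replicate 4, which had 9766640 reads and the fewest genes with reads, 10718. Crem was also at 0 in Day 0 replicates 1 to 3, and Atf1 in Day 0 replicate 3. Genes with reads numbered 12221, 13807 and 11628 in Day 0 replicates 1 to 3.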
